A study of Arabidopsis thaliana with 21 samples.

Results

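The seed maturation regulators described here are 7 genes of Arabidopsis thaliana, taken by locus: ABI3 (AT3G24650), FUS3 (AT3G26790), LEC1 (AT1G21970), LEC2 (AT1G28300), L1L (AT5G47670, also named NF-YB6), DOG1 (AT5G45830) and AGL15 (AT5G13790). They are 7 of 37899 annotated nuclear genes, and every peak of the 10 deposited tables that overlapped a gene body or the 2 kb upstream of its start was taken as belonging to it, which gave 205 of 312959 peak rows. The series holds ChIP-seq of whole seedlings collected 7 days after germination, with antibodies against monoubiquitinated histone H2A (H2AK121ub) or trimethylated lysine 27 of histone H3 (H3K27me3). The lines were atbmi1abc (a triple mutant of the AtBMI1a, b and c proteins), clfswn (a clf28 swn7 double mutant) and lhp1 (the tfl2-2 allele, by the study's methods), all in the Col-0 ecotype, each set against Col-0 wild type of the same age, with 2 replicates per group and a pool of whole seedlings behind each library. H2AK121ub was measured in all 3 mutants and H3K27me3 in atbmi1abc and clfswn. Whole seedlings mix many cell types, so a mark lost in every cell and a mark lost in some of them cannot be told apart.

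Seed maturation is switched on in the embryo by a small set of transcription factors and is silenced again when the seed germinates. LEC1 and L1L are NF-YB subunits of CCAAT-binding NF-Y complexes. ABI3, FUS3 and LEC2 carry a plant B3 domain that binds the RY element, the letters CATGCA. AGL15 is a MADS-domain factor of the embryo, and DOG1 sets the depth of seed dormancy. Polycomb repressive complex 1 places H2AK121ub through a module of AtBMI1 and AtRING1 proteins. Polycomb repressive complex 2 places H3K27me3 through the methyltransferases CLF and SWN, and LHP1 binds H3K27me3. The VAL proteins, which also carry a B3 domain and read RY elements, are known to bring Polycomb proteins to seed genes after germination.

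The genes lie on 3 chromosomes of TAIR10. ABI3 lies on chromosome 3 from 8997370 to 9001185 on the plus strand, and FUS3 on the same chromosome from 9853828 to 9856212 on the minus strand. LEC1 (7727577 to 7729649) and LEC2 (9896867 to 9899876) lie on the minus strand of chromosome 1. On chromosome 5 lie AGL15 (4448862 to 4450958, minus strand), DOG1 (18589418 to 18591506, minus strand) and L1L (19314778 to 19316169, plus strand). Positions below are given in bp from the gene start along the gene, with upstream positions negative.

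RY elements were searched because 3 of the 7 genes encode B3 factors, and they are given first over the whole Col-0 H2AK121ub peaks. Both strands and the replicate 1 limits were used, and overlapping matches were counted each. ABI3 held 8 matches, DOG1 7, LEC1 5, AGL15 5, FUS3 2 and L1L 2, against 0 in LEC2. One site per gene is shown on the gene's strand, with the match in capitals (CATGCA, or its reverse complement TGCATG) and 12 bases on either side.
ABI3, coding sequence at +779, chr3:8998137-8998166: ttcctgatttccCATGCAtgtcgtcttcat
FUS3, upstream at -25, chr3:9856220-9856249: acacttgttcacCATGCAcaatccactcgt
DOG1, upstream at -391, chr5:18591880-18591909: ctccacgtaatgCATGCAtgcgttatttct
AGL15, upstream at -102, chr5:4451043-4451072: gcaaaaaggtatCATGCAaaaaaccctaaa
LEC1, intron at +327, chr1:7729305-7729334: tttatatacataCATGCAagagtttgatat
L1L, at +500, chr5:19315266-19315295: ttataaaccgcgCATGCAgacgtcatcgaa
Of all 19422 Col-0 H2AK121ub peaks on the nuclear chromosomes, 26.2% held CATGCA in the 500 bases around the centre. In the same window of its strongest peak, AGL15 held 1 match, DOG1 2 and L1L 2, and ABI3, FUS3, LEC1 and LEC2 held 0, so 3 of the 7 genes had one. The members' peaks differed in length, so counts over whole peaks are not comparable between genes. A match is a string of letters and not a measured binding site.

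LEC2 and FUS3, both B3 genes with a Col-0 H2AK121ub peak across the gene start, are shown together. The 250 bases before each start are given 5′ to 3′ on the gene's strand, with RY elements, GAGAGA on either strand and the telobox (AAACCCTA) in capitals.
LEC2, chr1:9899877-9900126: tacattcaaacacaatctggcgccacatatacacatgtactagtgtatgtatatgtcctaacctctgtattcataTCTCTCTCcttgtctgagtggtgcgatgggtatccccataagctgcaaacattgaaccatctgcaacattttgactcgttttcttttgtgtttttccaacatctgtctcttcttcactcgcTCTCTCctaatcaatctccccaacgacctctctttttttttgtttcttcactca
FUS3, chr3:9856213-9856462: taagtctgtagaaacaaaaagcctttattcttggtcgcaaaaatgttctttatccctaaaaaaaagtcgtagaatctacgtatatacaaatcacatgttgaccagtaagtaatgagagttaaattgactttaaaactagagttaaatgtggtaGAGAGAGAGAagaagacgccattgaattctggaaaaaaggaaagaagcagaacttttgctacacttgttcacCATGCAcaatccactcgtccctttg
The LEC2 stretch held 3 GAGAGA matches, counted with overlaps, and no RY element, and the FUS3 stretch held 3 GAGAGA matches and 1 RY element. The strongest AGL15 peak also crossed its start, and the 250 bases there held 2 RY elements, 1 telobox and 0 GAGAGA matches. Over 27443 protein-coding genes, 20.6% held GAGAGA, 8.43% CATGCA and 4.49% the telobox in the same 250 bases. Around the centre of the LEC2 H2AK121ub peak, 500 bases held 11 overlapping GAGAGA matches. GAGAGA was found in 50.3% of the windows of that length around Col-0 H2AK121ub peaks.

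In Col-0, all 7 genes carried an H2AK121ub peak in both replicates, against 57.9% of all genes under the same rule. H3K27me3 peaks in both replicates were found at 5 of the 7 in the controls of atbmi1abc (30.9% of all genes) and at 6 of the 7 in the controls of clfswn (34.6%). L1L, the NF-YB gene related to LEC1, had no H3K27me3 peak in any of the 4 tables of that mark. AGL15 had one in both clfswn controls but only in replicate 1 of the atbmi1abc controls. The 6 Col-0 H2AK121ub samples held 2 sets of values, so all 3 mutants were compared with the same 2 Col-0 libraries.

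The H2AK121ub peak with the most Col-0 reads stands for each gene below. Per kb of peak length, the 2 Col-0 libraries gave 949.5 and 1001 reads at LEC1 and 962 and 895 at DOG1, and these overlapped. AGL15 followed with 587 and 652 reads per kb, and ABI3 with 500.4 and 452. LEC2 (406 and 356) and L1L (368 and 379.5) overlapped each other and lay near the median of all peaks, which was 370.5 and 367. FUS3 was the lowest of the 7 genes, with 264 and 256 reads per kb. The peaks covered different parts of the genes. At LEC1 the peak lay over the last part of the gene, from 1107 to 1959 in replicate 1, most of it coding sequence, and at DOG1 over 768 to 1480. At FUS3 and LEC2 it crossed the start (-1157 to 615, and -175 to 374), and at AGL15 it covered nearly the whole gene (-122 to 1880). At L1L it lay within the gene, from 261 to 914.

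The total of reads over all regions of a table was between 1428193 and 9602490 per library, and it was lowest in clfswn H3K27me3. Ratios below are scaled by these totals, so a peak is set against the summed reads of its library over all peaks, and a loss shared by all peaks is taken out. For that reason the unscaled reads are given first. A ratio of 0 is not always the typical region: the median fitted log2 ratio over all regions was 0.04, 0.04 and -0.03 for H2AK121ub in atbmi1abc, clfswn and lhp1, and 0.21 and -0.50 for H3K27me3 in atbmi1abc and clfswn. In the median matched region, H2AK121ub reads in atbmi1abc were 38.9% and 56.8% of Col-0 in replicates 1 and 2, in clfswn 88.8% and 90.8%, and in lhp1 124% and 106%. H3K27me3 reads were 88.5% and 101% of Col-0 in atbmi1abc, and 10.2% and 25.0% in clfswn. A region was called lower or higher at an adjusted p under 0.05, from edgeR's quasi-likelihood test with the replicate as a block and Benjamini-Hochberg adjustment over all regions of the comparison. The study's methods call the replicates independent. With 2 per group, the p-values and SEs lean on a spread that is estimated over all regions of these libraries. They do not measure how closely the replicates agreed at a single gene. Peaks found in both libraries carry the Col-0 limits, which favour places where Col-0 has reads. A peak found only in Col-0 entered because Col-0 was high there, so its call as lower is no test of a loss.

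**Figure D1:**
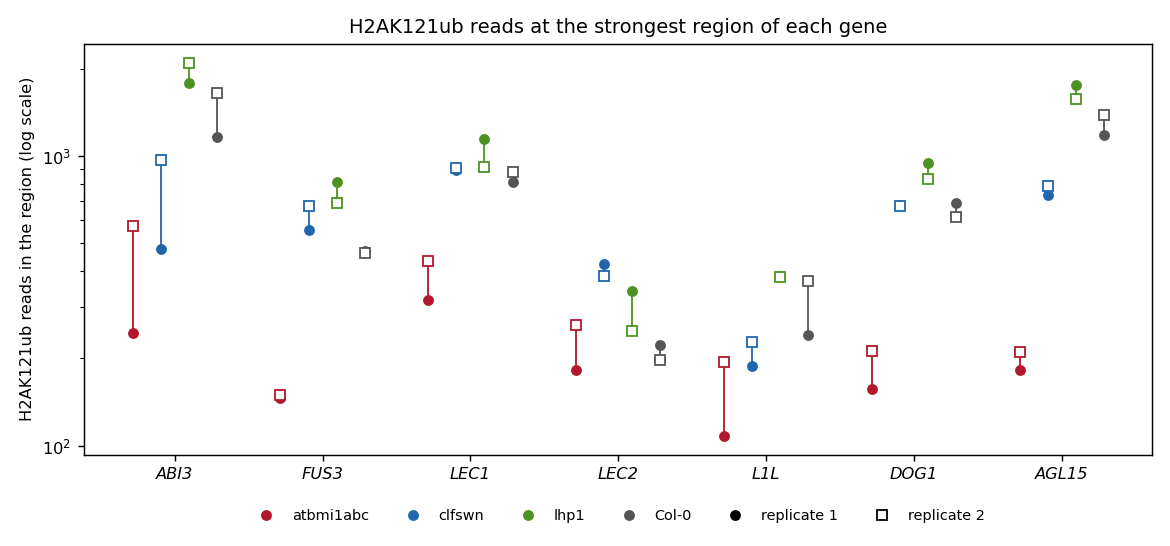
H2AK121ub reads (log scale) in the strongest peak of each of the 7 genes, in atbmi1abc, clfswn, lhp1 and Col-0. Filled circles are replicate 1 and open squares replicate 2, joined by a line. LEC2 is the gene where atbmi1abc (183 and 260 reads) overlaps Col-0 (223 and 197), while AGL15 has 183 and 211 reads in atbmi1abc against 1176 and 1379 in Col-0.

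H2AK121ub was first compared between atbmi1abc and Col-0. The study reports less DNA and a reduced mappability for its atbmi1abc libraries. After scaling, ABI3, FUS3, DOG1 and AGL15 were called lower, LEC1 and L1L were not called, and LEC2 was called higher, with unscaled reads that overlapped those of Col-0. Of the 7 genes, 4 were called lower, where 22.4% of all regions were, and 1 was called higher, where 24.8% were. Each gene counts by its strongest peak, while such shares, here and below, cover every matched region, weak ones included. Peaks with more reads are called more readily in either direction, so counts and shares are not like for like.

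AGL15 had 183 and 211 H2AK121ub reads in atbmi1abc, against 1176 and 1379 in Col-0. The mutant libraries kept 15.6% and 15.3% of the Col-0 reads, and no peak was called there in either of them. The fitted log2 ratio was -1.58 ± 0.14 (SE, n = 2 per group; edgeR adjusted p = 5.63e-16), lower than in all but 1.81% of the regions tested. This region entered through Col-0 alone, so its call is no test of a loss.

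ABI3 had a single peak over the gene in Col-0 replicate 2 and 2 peaks in replicate 1. In the matched region, atbmi1abc gave 244 and 571 reads against 1158 and 1649 in Col-0, with a fitted log2 ratio of -0.76 ± 0.12 (SE; edgeR adjusted p = 4.64e-07). Replicate 1 of that region holds only the 3′ part, from 1554 to 3868, and replicate 2 runs from 195 to 3842. The 5′ peak of replicate 1 (238 to 1332), which had no partner of its own and was not tested, kept 213 reads in atbmi1abc against 433 in Col-0, or 49.2%, whereas the 3′ part kept 21.1%. In replicate 1 the 3′ part thus kept a smaller share than the 5′ part.

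At DOG1, 3 peaks were found in Col-0 and all 3 were called lower in atbmi1abc. The peak inside the gene gave 157 and 212 reads in atbmi1abc against 685 and 616 in Col-0, a fitted log2 ratio of -0.71 ± 0.13 (SE; edgeR adjusted p = 1.02e-05). The peak across the start (-867 to 533) gave 135 and 174 reads in atbmi1abc against 531 and 646 in Col-0. In replicate 2, the mutant's own narrower peak (114 to 531) kept 41.8% of the Col-0 reads and the rest of the region 18.2%, with 100 mutant reads inside and 74 outside. Limits drawn from a mutant's own peak favour the place where that mutant has reads, so such shares, here and below, are a description with no test. The peak farthest upstream (-1654 to -1114) gave 37 and 38 reads in atbmi1abc against 140 and 136 in Col-0, with a fitted log2 ratio of -0.76 ± 0.25 (SE; edgeR adjusted p = 0.00989). It was found only in Col-0 in both replicates, so its call is no test of a loss. With DESeq2 that far peak was not called (adjusted p = 0.177), and with the mutant's limits the start peak was not (-0.34, edgeR adjusted p = 0.133).

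FUS3 gave 146 and 149 reads at its start in atbmi1abc, against 468 and 462 in Col-0. The fitted log2 ratio was -0.54 ± 0.15 (SE; edgeR adjusted p = 0.00191). In replicate 1 a narrower peak was still called in the mutant, from 218 to 635, with 60 reads in atbmi1abc and 112 in Col-0. With the mutant's limits in place of the Col-0 limits the FUS3 ratio was no longer called (-0.34, edgeR adjusted p = 0.157).

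LEC2 was the B3 gene called higher. Its start had 183 and 260 reads in atbmi1abc, against 223 and 197 in Col-0, so the groups overlapped even before scaling. After scaling this was a fitted log2 ratio of 1.18 ± 0.15 (SE; edgeR adjusted p = 1.07e-09), above 96.2% of the regions tested. The mutant's peak was also the wider one, from -292 to 529 in replicate 1, against -175 to 374 in Col-0. A weak peak near the end of LEC2 had 72 and 44 reads in atbmi1abc against 75 and 57 in Col-0. In replicate 1 it was found only in the mutant, so it is given with no test.

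The NF-YB genes did not pass the test in atbmi1abc. LEC1 gave 317 and 435 reads in atbmi1abc against 809 and 879 in Col-0, and the fitted log2 ratio was -0.06 ± 0.13 (SE; edgeR adjusted p = 0.71). L1L gave 108 and 194 reads in atbmi1abc against 240 and 370 in Col-0, with a fitted log2 ratio of 0.07 ± 0.16 (SE; edgeR adjusted p = 0.756). Both genes had fewer reads in each mutant library than in either Col-0 library. The smaller peaks of LEC1, at 77 to 490 and -2419 to -976, and the upstream peak of L1L were not called. The upstream LEC1 peak also overlaps the gene AT1G21973 and the upstream L1L peak the gene AT5G47660, so they cannot be assigned to LEC1 or L1L alone.

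Without the replicate block, 2 genes were called lower in atbmi1abc (DOG1 and AGL15), and LEC2 stayed called higher (edgeR adjusted p = 0.0123). With DESeq2, FUS3 was not called (adjusted p = 0.102).

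**Figure D2:**
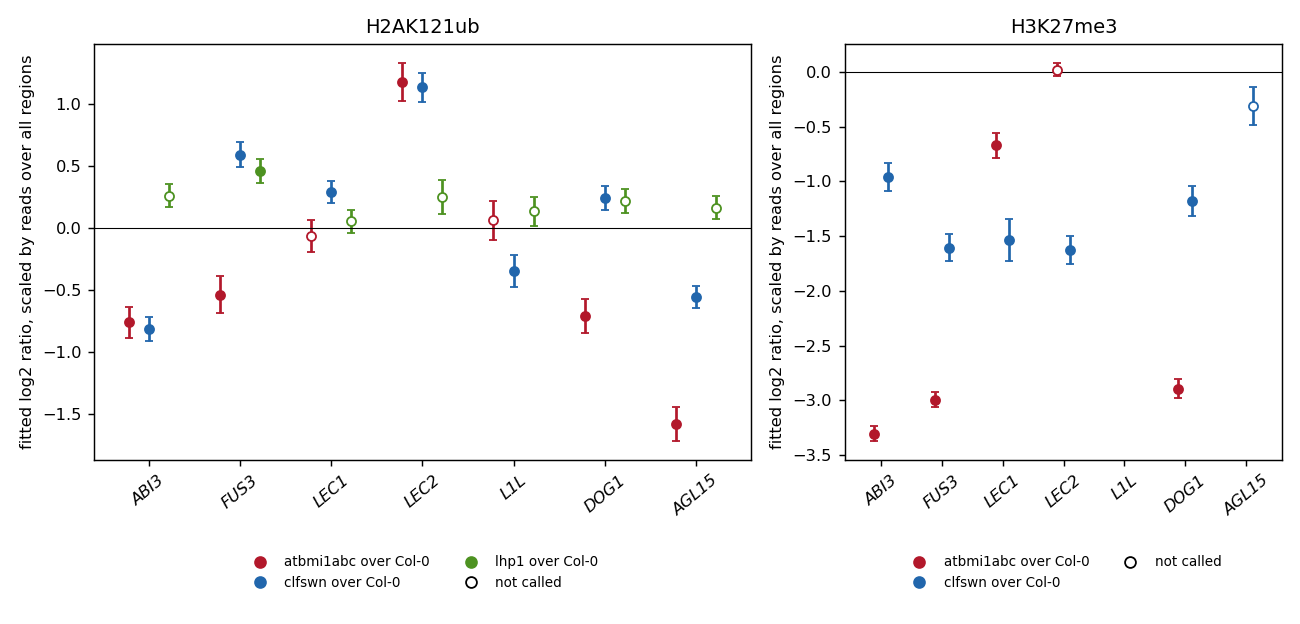
Fitted log2 ratio of mutant over Col-0 (edgeR, error bars are SE) in the strongest peak of each gene, for H2AK121ub on the left and H3K27me3 on the right. Filled points were called. In atbmi1abc, LEC2 is at 1.18 for H2AK121ub and 0.02 for H3K27me3, while ABI3 is at -0.76 and -3.30.

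H2AK121ub in clfswn was set against Col-0 next. After scaling it was called higher at the starts of LEC2 and FUS3 and over the gene bodies of LEC1 and DOG1, and lower over ABI3, AGL15 and L1L. Of the 7 genes 4 were called higher, against 21.5% of all regions, and 3 were called lower, against 18.5%. As above, the genes count by strongest peaks and the shares do not.

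LEC2 had 422 and 384 H2AK121ub reads in clfswn against 223 and 197 in Col-0, or 189% and 195% of the Col-0 reads. The fitted log2 ratio was 1.14 ± 0.12 (SE, n = 2 per group; edgeR adjusted p = 8.07e-10), higher than in 99.2% of the regions tested. Both clfswn libraries lay above both Col-0 libraries.

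FUS3 had 554 and 673 reads in clfswn against 468 and 462 in Col-0, and its fitted log2 ratio was 0.59 ± 0.10 (SE; edgeR adjusted p = 1.58e-05). By limits taken from the mutant's own peaks, the shares differed along the peak, which was not tested. Within the mutant's own peak around the start (-462 to 770 in replicate 1, -471 to 740 in replicate 2), clfswn reached 497 and 591 reads against 326 and 291 in Col-0, or 152% and 203%. A separate stretch upstream (-938 to -671, called in replicate 2) had 51 reads in clfswn against 100 in Col-0. A further peak inside FUS3, from 916 to 1481, was found in clfswn but not in Col-0, and held 106% and 153% of the Col-0 reads. It entered the table only because it was found in clfswn, so it is given with no test.

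DOG1 also differed between the gene and the stretch upstream. Its gene-body peak gave 674 and 669 reads in clfswn against 685 and 616 in Col-0, a fitted log2 ratio of 0.24 ± 0.09 (SE; edgeR adjusted p = 0.0362). The peak across the start gave 394 and 433 reads in clfswn against 531 and 646 in Col-0, a fitted log2 ratio of -0.31 ± 0.10 (SE; edgeR adjusted p = 0.0144). In the mutant that peak was broken up. The piece just inside the gene (16 to 561 and 33 to 611) kept 94.0% and 93.7% of the Col-0 reads, and the upstream piece (-793 to -559 and -774 to -202) kept 50.4% and 43.3%. With the mutant's limits the fitted log2 ratio of the start peak was 0.06, so its direction depended on which piece stood for it.

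ABI3 gave 478 and 965 reads in clfswn against 1158 and 1649 in Col-0 in the matched region, a fitted log2 ratio of -0.81 ± 0.10 (SE; edgeR adjusted p = 2.19e-08). Here too the change differed along the gene. In replicate 1 the 5′ peak (238 to 1332) had 582 reads in clfswn against 433 in Col-0, or 134%, and the 3′ peak (1554 to 3868) kept 41.3%. The mutant's own peak ended at 2361 and 2270, where the Col-0 peak ran to 3868 and 3842. Within the mutant's peak, clfswn had 958 and 843 reads against 1028 and 994 in Col-0, and with these limits the fitted log2 ratio was -0.01 (edgeR adjusted p = 0.912). A small upstream peak of Col-0 replicate 2 (-922 to -621) had 16 reads in clfswn against 67 in Col-0.

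AGL15 gave 730 and 785 reads in clfswn against 1176 and 1379 in Col-0, with a fitted log2 ratio of -0.55 ± 0.09 (SE; edgeR adjusted p = 4.43e-06). Inside the mutant's own peaks 64.6% and 57.1% of the Col-0 reads were kept, and outside them 55.2% and 56.1%, although the small 3′ piece of replicate 2 (1443 to 1745) kept 35.8%. L1L gave 188 and 227 reads in clfswn against 240 and 370 in Col-0, a fitted log2 ratio of -0.34 ± 0.13 (SE; edgeR adjusted p = 0.0302). Each clfswn library lay below both Col-0 libraries at both genes.

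At LEC1 the main peak gave 895 and 907 reads in clfswn against 809 and 879 in Col-0 (fitted log2 ratio 0.29 ± 0.09, SE; edgeR adjusted p = 0.00854). The small peak just inside the gene gave 137 and 170 reads in clfswn against 117 and 108 in Col-0, a fitted log2 ratio of 0.64 ± 0.16 (SE; edgeR adjusted p = 0.00214). The upstream peak was not called, with 355 and 384 reads in clfswn against 447 and 392 in Col-0.

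The clfswn calls depended on the test. Without the replicate block only LEC2 was called higher (edgeR adjusted p = 0.0353) and only AGL15 lower (edgeR adjusted p = 0.0462), and with DESeq2 LEC1 and DOG1 were no longer called higher nor L1L lower. The DOG1 gene-body peak was also not called with TMM normalization (adjusted p = 0.0602). The DOG1 peak across the start was called neither with DESeq2 (adjusted p = 0.259) nor without the block (edgeR adjusted p = 0.186). Nor was the small LEC1 peak, with DESeq2 (adjusted p = 0.189) or without the block (edgeR adjusted p = 0.155).

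**Figure D3:**
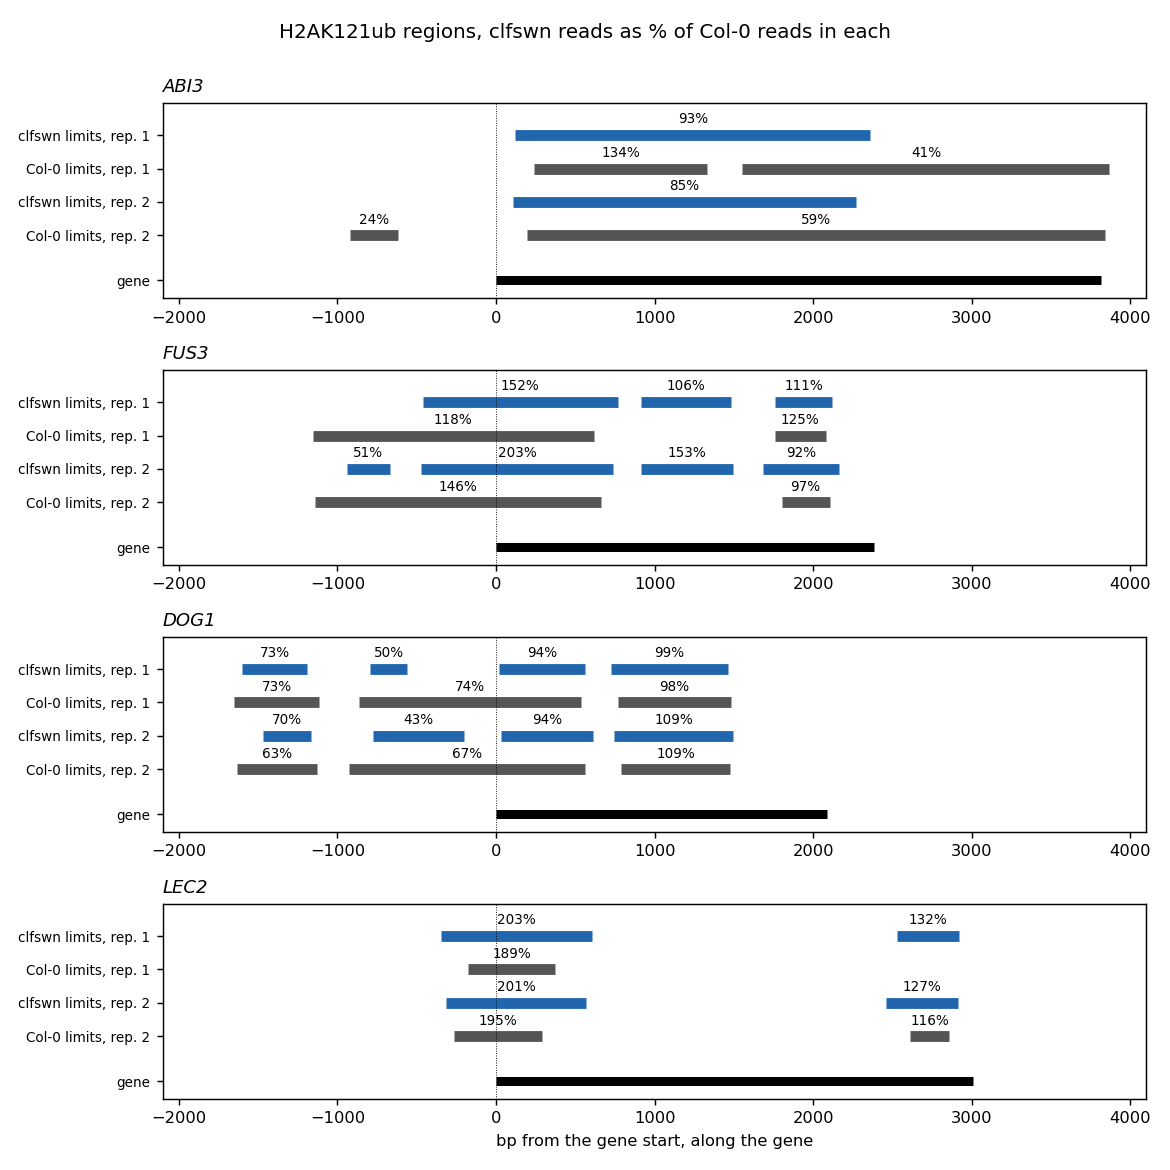
H2AK121ub peaks at ABI3, FUS3, DOG1 and LEC2, by distance from the gene start in bp. Blue bars are peaks with the limits called in clfswn and grey bars with those called in Col-0, for each replicate, and the number above a bar is the clfswn reads as a percentage of the Col-0 reads in it. At DOG1 the piece inside the gene is at 94% and the piece upstream at 50% and 43%.

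In lhp1, unscaled H2AK121ub reads were higher than in Col-0 in both replicates at the strongest peak of all 7 genes, as in the median region. Only FUS3 was called by its strongest peak, as higher, against 5.57% of all regions, and 0 were called lower, against 3.58%. Of all regions called, 39.1% were lower, against 28.1% with TMM normalization and 13.3% with DESeq2. FUS3 had 810 and 689 reads in lhp1 against 468 and 462 in Col-0, with a fitted log2 ratio of 0.46 ± 0.10 (SE, n = 2 per group; edgeR adjusted p = 0.000186). At DOG1 the peak across the start was also called higher, with 1038 and 797 reads in lhp1 against 531 and 646 in Col-0 and a fitted log2 ratio of 0.41 ± 0.10 (SE; edgeR adjusted p = 0.000752). ABI3 missed the threshold with 1783 and 2096 reads in lhp1 against 1158 and 1649 in Col-0 (fitted log2 ratio 0.26 ± 0.09, SE; edgeR adjusted p = 0.0506) and was called with TMM normalization (adjusted p = 0.045). The DOG1 gene-body peak was not called, with 942 and 831 reads in lhp1 against 685 and 616 in Col-0.

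LEC2 had 341 and 248 reads in lhp1 against 223 and 197 in Col-0, and AGL15 had 1758 and 1574 against 1176 and 1379. LEC1 had 1141 and 915 reads in lhp1 against 809 and 879 in Col-0, and L1L had 386 and 383 against 240 and 370. The unscaled reads were higher in each lhp1 library than in either Col-0 library at all 4 of these genes, while their fitted log2 ratios were between 0.06 and 0.25 and none was called. Without the replicate block no member gene was called in lhp1, where 1 region of all 22056 was, and none with DESeq2, where 26 regions were called lower and 170 higher. At an unadjusted p under 0.05 there were 1629 regions without the block and 1100 with DESeq2.

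The difference between mutants was tested directly at the Col-0 peak limits, with all 3 mutants and the 2 Col-0 libraries in one edgeR fit. In clfswn minus atbmi1abc, FUS3, DOG1, AGL15 and LEC1 were called higher (19.9% of all regions were) and L1L lower (23.7%). The fitted log2 differences were 1.11 ± 0.14 at FUS3, 1.001 ± 0.121 at AGL15, 0.93 ± 0.12 at DOG1 and 0.33 ± 0.10 at LEC1 (SE). LEC2 and ABI3 did not pass the test between these mutants, with -0.07 ± 0.12 (edgeR adjusted p = 0.656) and -0.07 ± 0.12 (edgeR adjusted p = 0.644). At LEC2 the unscaled reads still differed, with 422 and 384 in clfswn against 183 and 260 in atbmi1abc.

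In lhp1 minus clfswn, ABI3, AGL15 and L1L were called higher (20.6% of all regions were) and LEC2 and LEC1 lower (23.6%). The fitted difference was 1.05 ± 0.11 at ABI3, and LEC2 had the lowest, -0.90 ± 0.12 (SE). In every contrast the ABI3 region paired the 3′ part alone in replicate 1 with nearly the whole gene in replicate 2. Here the replicates gave 1.33 and 0.81. The 5′ peak left out of replicate 1 had 709 reads in lhp1 and 582 in clfswn, so ABI3 cannot be ranked against the other genes. At DOG1 the gene-body peak did not pass (-0.04 ± 0.10) while the peak across the start was higher in lhp1 by 0.70 ± 0.11 (SE; edgeR adjusted p = 2.74e-05). In lhp1 minus atbmi1abc, ABI3, FUS3, DOG1 and AGL15 were called higher (24.6% of all regions were) and LEC2 lower (31.2%). AGL15 differed most, by 1.70 ± 0.12, and LEC2 by -0.98 ± 0.13 (SE).

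H3K27me3, the mark placed by PRC2, was then compared between atbmi1abc and Col-0. ABI3, FUS3 and DOG1 kept between 7.47% and 11.7% of the Col-0 reads, LEC1 kept more in its strongest peak, and LEC2 did not pass the test. Of the 5 genes with a matched peak, 4 were called lower, against 30.7% of all regions, and 0 higher, against 47.7%. DESeq2 also gave 4 lower and 0 higher.

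ABI3 had 254 and 251 H3K27me3 reads in atbmi1abc, against 3399 and 2729 in Col-0, over a peak that ran from -2140 to 4746 and so covered the gene with both flanks. The fitted log2 ratio was -3.30 ± 0.07 (SE, n = 2 per group; edgeR adjusted p = 1.31e-40), lower than in all but 0.562% of the regions tested. FUS3 had 252 and 259 reads in atbmi1abc against 2790 and 2217 in Col-0, with a fitted log2 ratio of -2.99 ± 0.07 (SE; edgeR adjusted p = 3.79e-38). DOG1 had 202 and 157 reads in atbmi1abc against 1845 and 1426 in Col-0, with a fitted log2 ratio of -2.89 ± 0.09 (SE; edgeR adjusted p = 1.23e-33). The DOG1 peak also overlaps AT5G45840, and the FUS3 peak of replicate 1 AT3G26782. No peak was called at any of these 3 genes in either atbmi1abc library. Their regions entered through Col-0 alone, so the calls are no test of a loss.

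LEC2 lay in a domain of 21442 and 21305 bp in the Col-0 replicates, which reached from beyond the end of the gene to about 18 kb upstream and also covered AT1G28305, AT1G28306 and AT1G28310. The domain had 7470 and 6636 reads in atbmi1abc against 9666 and 7447 in Col-0, or 77.3% and 89.1%. The fitted log2 ratio was 0.02 ± 0.06 (SE; edgeR adjusted p = 0.768). The atbmi1abc libraries had a peak of nearly the same limits there, from -17998 to 4769 in replicate 1 and from -18002 to 4950 in replicate 2. How many of the reads fall on LEC2 itself cannot be read from a single peak of this length. With the mutant's limits the fitted log2 ratio was -0.12 and was called (edgeR adjusted p = 0.0119) as lower.

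LEC1 had 3 H3K27me3 peaks, and they differed from each other. The upstream peak (-2530 to -819), which also overlaps AT1G21973, kept 308 and 303 reads in atbmi1abc against 663 and 534 in Col-0, a fitted log2 ratio of -0.67 ± 0.12 (SE; edgeR adjusted p = 1.09e-06). The peak across the start fell to 33 and 37 reads in atbmi1abc, against 196 and 130 in Col-0, with a fitted log2 ratio of -1.90 ± 0.24 (SE). The peak at the end of the gene fell to 57 and 77 reads in atbmi1abc, against 317 and 252 in Col-0, with a fitted log2 ratio of -1.79 ± 0.17 (SE). The 2 peaks on the gene were called only in Col-0, so their ratios are no test of a loss, and the upstream peak was called also in atbmi1abc. The upstream peak had the most reads and so stands for LEC1 in the counts. AGL15 had 12 reads in atbmi1abc against 128 in Col-0 in the small peak (82 to 524) called in replicate 1, which had no partner in replicate 2 and was not tested.

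**Figure D4:**
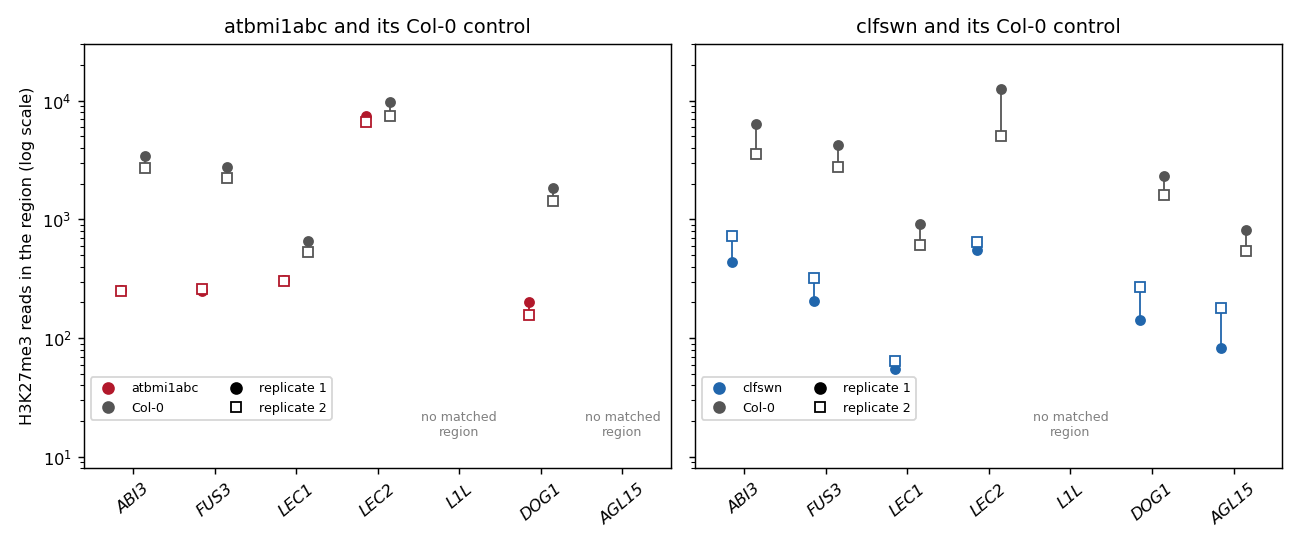
H3K27me3 reads (log scale) in the strongest peak of each gene, in atbmi1abc and its Col-0 control on the left and clfswn and its Col-0 control on the right. Filled circles are replicate 1 and open squares replicate 2. In atbmi1abc, ABI3 has 254 and 251 reads against 3399 and 2729 in Col-0, and LEC2 7470 and 6636 against 9666 and 7447.

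In clfswn, every member with a matched H3K27me3 peak had fewer reads than Col-0 in both replicates. ABI3 had 436 and 719 reads in clfswn against 6311 and 3577 in Col-0, FUS3 had 205 and 324 against 4229 and 2753, and DOG1 had 141 and 269 against 2311 and 1606. LEC1's upstream peak had 55 and 64 reads in clfswn against 909 and 609 in Col-0. The mutant libraries kept between 4.85% and 20.1% of the Col-0 reads at these 4 genes, and each value was below the median over all regions in its replicate (10.2% and 25.0%).

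At LEC2 the domain was 1 peak in Col-0 replicate 1 and was split in replicate 2. It had 551 reads in clfswn against 12579 in Col-0 in replicate 1, and the piece on LEC2 (-3095 to 3344) had 314 reads in clfswn against 3251 in Col-0 in replicate 2. The matching of replicates paired the long peak with the other piece, upstream of -3243, which had 640 reads in clfswn against 5072 in Col-0. Unlike in atbmi1abc, no peak was called there in either clfswn library.

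After scaling, 5 of the 6 genes with a matched peak were called lower, against 47.7% of all regions, and 0 higher, against 15.2%. The fitted log2 ratios were -1.63 ± 0.13 at LEC2, -1.60 ± 0.12 at FUS3, -1.54 ± 0.19 at LEC1, -1.18 ± 0.13 at DOG1 and -0.96 ± 0.12 at ABI3 (SE, n = 2 per group), where the median over all regions was -0.50. The LEC2 value and call rest on the upstream piece in replicate 2, so the piece on LEC2 itself was not tested. AGL15 had 82 and 179 reads in clfswn against 820 and 539 in Col-0 and was not called (fitted log2 ratio -0.31 ± 0.18, SE; edgeR adjusted p = 0.14), with a ratio above that median. Of all regions called, 75.8% were lower, against 48.5% with TMM normalization and 55.3% with DESeq2. With TMM normalization the median over all regions was 0.11, the AGL15 ratio turned to 0.30, and the 5 others were still called lower, while with DESeq2 ABI3 was not called (adjusted p = 0.0806). ABI3 was the only member with an H3K27me3 peak still found in clfswn, a short one from 503 to 1349 in replicate 1 and from 195 to 1205 in replicate 2. The matched regions of the other members entered through Col-0 alone, so their calls are no test of a loss.

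In atbmi1abc, ABI3, FUS3 and DOG1 were called lower for both marks, LEC1 for H3K27me3 but not for H2AK121ub by its strongest peaks, and LEC2 for neither. The LEC1 peaks lay apart, at -2530 to -819 for H3K27me3 and 1107 to 1959 for H2AK121ub. At LEC2 an H3K27me3 domain from -18031 to 3411 was set beside an H2AK121ub peak from -175 to 374. With the mutant's limits that domain was called lower (-0.12, edgeR adjusted p = 0.0119). AGL15 had the lowest H2AK121ub ratio of the 7 genes in atbmi1abc (-1.58) and no matched H3K27me3 peak there. The median fitted log2 ratio over the members was -0.54 for H2AK121ub and -2.89 for H3K27me3 in atbmi1abc, beside 0.04 and 0.21 over all regions. In clfswn it was 0.24 for H2AK121ub, beside 0.04, and -1.36 for H3K27me3, beside -0.50. In lhp1 it was 0.22 for H2AK121ub, beside -0.03.

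Of 17 other regulators of the seed programme, 13 had a matched H2AK121ub peak in the atbmi1abc tables, of which 3 were called lower (22.4% of all regions were) and 5 higher (24.8%). VAL1, a B3 repressor that recruits Polycomb proteins, had 114 and 123 reads in atbmi1abc against 688 and 731 in Col-0 (fitted log2 ratio -1.47 ± 0.14, SE). BZIP67, a bZIP partner of the NF-Y and B3 factors in seeds, had a ratio of -0.91 ± 0.13, and ABI4, an AP2-type factor of abscisic acid signalling, 0.72 ± 0.14 (SE). In clfswn 5 of 14 were called lower (18.5% of all regions were) and 3 higher (21.5%). The lowest ratio was at VAL3 (-0.74 ± 0.13, SE), and BBM, which acts in embryogenesis, had 1.08 ± 0.10 (SE). MYB115 is among the 3 called higher (1.09 ± 0.25, SE), with 65 and 73 reads in clfswn against 34 and 40 in Col-0. It had no matched region in atbmi1abc or lhp1, which were set beside the same Col-0 peaks. Its region thus entered through a peak found in clfswn in at least 1 replicate, and its call is no test of a gain. In lhp1 1 of 13 was called lower (ABI5, -0.33 ± 0.11, SE), where 3.58% of all regions were, and 0 higher, where 5.57% were. With TMM normalization this turned to 0 lower and 1 higher (VAL1), and with DESeq2 0 were called in either direction. Without the replicate block, 2 of these genes were called lower and 0 higher in atbmi1abc, and 1 lower and 0 higher in clfswn.

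H3K27me3 was matched at 6 of these 17 genes in the atbmi1abc tables. BZIP67 had 87 and 99 reads in atbmi1abc against 1116 and 748 in Col-0, and ABI4 and BBM had ratios of -1.78 ± 0.06 and -1.75 ± 0.06 (SE), so 3 were called lower, where 30.7% of all regions were, and 2 higher, where 47.7% were. VAL2, a B3 repressor like VAL1, was called higher at 0.83 ± 0.22 (SE) but not with DESeq2 (adjusted p = 0.0702). MYB115, a MYB factor of embryogenesis, was also called higher (0.12 ± 0.06, SE), with 4304 and 3599 reads in atbmi1abc against 5066 and 3854 in Col-0, and its ratio turned to -0.05 with TMM normalization and with DESeq2. In clfswn 6 of 7 were called lower, the lowest being MYB118, MYB115 and ABI4 (-1.82, -1.76 and -1.39), and 0 higher, where 47.7% of all regions were called lower and 15.2% higher.

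The genes these factors switch on were taken as 11 seed storage and late embryogenesis genes. In atbmi1abc, 9 of 11 were called lower and 2 higher for H2AK121ub, where 22.4% and 24.8% of all regions were, and 9 lower and 2 higher for H3K27me3, where 30.7% and 47.7% were, but At2S1 to At2S4 are neighbours that share 1 H3K27me3 peak and 2 H2AK121ub peaks and so are not separate measurements. The cruciferin gene CRC had 1106 and 1434 H2AK121ub reads in atbmi1abc against 5771 and 5722 in Col-0, a fitted log2 ratio of -1.07 ± 0.10 (SE). The cruciferin gene CRA1 had 110 and 118 H3K27me3 reads in atbmi1abc against 1507 and 1162 in Col-0, a fitted log2 ratio of -3.25 ± 0.11 (SE). OLEO2, an oleosin of oil bodies, was called higher for both marks, with 50 and 47 H2AK121ub reads in atbmi1abc against 49 and 39 in Col-0, and 400 and 416 H3K27me3 reads against 332 and 403. For H2AK121ub, OLEO2 had no matched region in lhp1, which was set beside the same Col-0 peaks. Its region here thus entered through a peak found in atbmi1abc in at least 1 replicate, and its H2AK121ub call is no test of a gain. EM1, a late embryogenesis abundant protein gene, was the other one called higher for both. For H3K27me3 neither was called with DESeq2 (adjusted p = 0.212 at OLEO2 and 0.618 at EM1).

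In clfswn, 1 of the 11 was called lower for H2AK121ub (CRC, -0.30 ± 0.08, SE) and 4 higher, where 18.5% and 21.5% of all regions were. Among the 4, OLEO2 had a ratio of 0.77 ± 0.15 and EM1 of 0.58 ± 0.09 (SE). The OLEO2 region had no match in lhp1, beside the same Col-0 peaks, and so entered through a peak found in clfswn in at least 1 replicate. That OLEO2 call is no test of a gain. For H3K27me3, 8 were called lower there, the 4 At2S genes among them through their shared peak, and 0 higher, where 47.7% and 15.2% of all regions were. With TMM normalization these became 7 lower and 1 higher, and without the replicate block none of the 11 was called for H2AK121ub. In lhp1, 0 of 10 were called for H2AK121ub in either direction, with ratios between -0.23 at EM6 and 0.07 at CRC.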

How the data were processed

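The members and gene lists were chosen with earlier results of these data known. Reads had been aligned with Bowtie (genome TAIR10) and peaks called with MACS2 against a common input by the authors, and each deposited table sets a mutant library beside its Col-0 control for 1 mark and replicate. The deposited read counts per peak are whole, unscaled numbers and were the values used. The authors' own comparisons in the tables (rescaled ratio, mean intensity and p-value) were not used. Read columns were taken as mutant first and Col-0 second, as in the name of each table. For H2AK121ub this was checked, since the Col-0 peaks (21987 and 22314) and counts were identical for all 3 mutants, so 6 Col-0 samples were counted as 2 libraries. H3K27me3 has no such check, and its directions rest on that order. The input sample was not analysed here.

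A peak found in both libraries was counted once, with the Col-0 limits, and the replicate tables were joined by mutual best overlap (1 bp or more). Regions with at least 10 reads over the 4 libraries were tested with edgeR 4.0.16 (R 4.3.3), with the replicate number as a block and the total reads over all regions of a table as library size, since totals of mapped reads were not used here. The pairing follows the study's methods, which compare mutant and wild type separately in each replicate. Across regions, replicate differences of mutant and Col-0 correlated with r between 0.52 and 0.73, and between 0.05 and 0.12 where the limits of both replicates differed in length by 10% or less, and unequal limits are among what the block takes up. Alternatives were TMM normalization, DESeq2 1.42.0, no filter, no replicate block, each replicate or library left out, the mutant's limits, 1 kb upstream, an overlap of 50%, a level under 80% or over 120%, and, chosen after seeing the data, library sizes from nuclear chromosomes only. All 7 genes were named. Of each other list at most the 3 called genes with the largest absolute ratio were named per comparison, and VAL2, MYB115, CRC, OLEO2, EM1 and EM6 were also named after their values were seen. Annotation and sequence came from RefSeq TAIR10.1. Whether deposited starts count from 0 or 1 is not stated, so positions may be off by 1 bp.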

Additional observations from a re-analysis of the deposited data

How the results depend on the processing

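Counts of member genes called for H3K27me3 stayed within 1.5 times their value under the alternatives that gave a count. For H2AK121ub in atbmi1abc, 4 genes were called lower and 1 higher. There were 2 lower without the replicate block, 2 with the mutant's limits (where ABI3 had no matched region), and 1 lower and 0 to 1 higher with any 1 library left out. In clfswn, 3 lower and 4 higher became 1 and 1 without the block, 2 higher with DESeq2, and 0 and 0 with a library left out. In lhp1, 1 higher became 2 with TMM normalization, 2 with the mutant's limits, and 0 with DESeq2, without the block and with a library left out. Between mutants, dropping the block gave 0 lower in place of 1 for clfswn minus atbmi1abc, and 1 lower and 1 higher in place of 2 and 3 for lhp1 minus clfswn, where TMM gave 1 lower. Over all regions, calls without the block numbered 2005 lower and 1725 higher in atbmi1abc, against 4630 and 5121 with it, 505 and 396 in clfswn, against 4458 and 5179, and 0 and 1 in lhp1, against 790 and 1228. DESeq2 called 2382 lower and 1979 higher for atbmi1abc, 1480 lower and 1143 higher for clfswn, and 26 lower with 170 higher for lhp1. For H3K27me3, 2951 lower and 4584 higher in atbmi1abc became 2048 and 2720 without the block and 2883 and 2989 with DESeq2, and 4871 and 1554 in clfswn became 2395 and 1933 with DESeq2 and 2884 and 3067 with TMM. Leaving out a replicate pair leaves no residual degrees of freedom, so it gave values without a test.

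Some fitted log2 ratios turned sign. In atbmi1abc H2AK121ub the upstream L1L peak was at -0.020 with TMM, -0.015 with DESeq2 and -0.043 with the mutant's limits, and at -0.16 and -0.016 without replicate 1 of atbmi1abc or Col-0. The L1L gene peak was at -0.18 without Col-0 replicate 1 and -0.072 without atbmi1abc replicate 2, and the main LEC1 peak at 0.0066 without atbmi1abc replicate 2. In clfswn the upstream LEC1 peak was at -0.013 with TMM, -0.0093 with DESeq2, -0.042 with the mutant's limits, and -0.011 and -0.11 without replicate 2 of clfswn or Col-0, and the upstream L1L peak at -0.0042 with TMM, -0.012 with DESeq2, and -0.31 and -0.00043 without replicate 1 of clfswn or Col-0. The DOG1 start peak in clfswn, called lower, was at 0.063 with the mutant's limits. In lhp1 without its replicate 1, the main LEC1 peak was at -0.0072 and the upstream L1L peak at 0.0061, and the L1L gene peak was at -0.13 without Col-0 replicate 1. For H3K27me3, LEC2 in atbmi1abc was at -0.15 with TMM, -0.15 with DESeq2, -0.0060 with nuclear chromosomes only and -0.12 with the mutant's limits, where it was called lower, and AGL15 in clfswn at 0.30 with TMM and 0.23 with DESeq2. Between mutants with TMM, the upstream L1L peak was at 0.046 (clfswn minus atbmi1abc) and the upstream LEC1 peak at 0.084 (lhp1 minus atbmi1abc). Scaling also moved the split of calls over all regions: of those called, 75.8% were lower for H3K27me3 in clfswn, against 48.5% with TMM and 55.3% with DESeq2, and 39.1% for H2AK121ub in lhp1, against 28.1% and 13.3%. For H2AK121ub in clfswn the share was 46.3%, against 56.4% with DESeq2. The cause of these shifts was not tested.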
